A study of Mus musculus with 8 samples.

Results

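The mitochondrial ribosomal protein genes were followed in mouse leukemia macrophages, cultured either alone or with mesenchymal stromal cells. Members were the rows of the deposited count table whose symbol was Mrpl or Mrps followed by a number and at most 1 letter, without pseudogene rows ending in -ps. The rule gave 78 genes of the 53647 in the table, all annotated as protein coding. By place in the ribosome, 51 belonged to the large subunit and 26 to the small subunit. Mrps18a and Mrps30 were counted in the large subunit, where their proteins sit in spite of the symbol. Mrps36, whose product is now placed in the alpha-ketoglutarate dehydrogenase complex, was counted in neither. The study sequenced polyA RNA from C57BL/6 leukemia macrophages sorted after culture, in 8 libraries. In 4 libraries, called Mac, the macrophages had been kept alone, with 12 h as the time given. In the other 4, called E-Mac for educated macrophages, they had shared the culture with mesenchymal stromal cells (MSC), which support blood formation in the marrow, for 12 h. The labels give no genotype, leukemia model, age or sex, and do not say how the macrophages or the MSC were obtained.

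Mitochondria carry their own small genome and translate its few mRNAs, all for subunits of the respiratory chain and ATP synthase, on a dedicated ribosome. The ribosomal RNAs of this mitoribosome come from the mitochondrial genome, whereas its proteins are encoded in the nucleus, made in the cytosol and imported. Some of these proteins descend from the bacterial ribosome and others are specific to mitochondria. The comparison asks whether transcripts of the mitoribosome differed after co-culture and whether its large and small subunits did so alike. The 37 mitochondrially encoded rows of the table had 0 counts in each library, so the mRNAs that mitoribosomes translate were not analysed here.

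The promoters of many nuclear genes for mitochondrial proteins hold sites for the transcription factors NRF1, GABP (an ETS factor) and YY1. RefSeq promoters on GRCm38.p6, 250 bases before to 50 after the annotated start, were at hand for 69 of the 78 members. Motifs were searched as letters on both strands: CGCATGCG for NRF1, CCGGAAGT for GABP, AAGATGGC for YY1 and CACGTG, the E-box bound by MYC and other factors. The 100 bases before the start are shown for the 6 members called higher in E-Mac with a whole match there, since they let a reader see the site beside the fold changes given below. Those of Mrpl33 and Mrpl24, the clearest decreases, follow. Whole matches there were also held by members not called higher, which are not shown. These were Mrpl9, Mrpl22, Mrpl32, Mrpl36, Mrpl43, Mrpl48, Mrpl51 and Mrps26. A link between motif and call was not tested. Capitals mark the motif, NRF1 in Mrpl17, the E-box in Mrpl20, and GABP in Mrpl27, Mrpl3, Mrps22 and (as its reverse complement) Mrps27.
Mrpl17: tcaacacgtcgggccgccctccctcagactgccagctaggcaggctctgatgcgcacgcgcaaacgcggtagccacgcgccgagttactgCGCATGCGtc
Mrpl20: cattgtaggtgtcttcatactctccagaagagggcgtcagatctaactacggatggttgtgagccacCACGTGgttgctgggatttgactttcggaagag
Mrpl27: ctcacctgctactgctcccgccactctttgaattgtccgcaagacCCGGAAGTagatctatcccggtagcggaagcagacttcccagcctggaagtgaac
Mrpl3: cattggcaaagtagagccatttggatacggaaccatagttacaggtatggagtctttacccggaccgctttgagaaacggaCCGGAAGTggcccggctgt
Mrps22: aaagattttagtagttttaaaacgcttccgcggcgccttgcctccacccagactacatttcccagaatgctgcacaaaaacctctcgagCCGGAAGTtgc
Mrps27: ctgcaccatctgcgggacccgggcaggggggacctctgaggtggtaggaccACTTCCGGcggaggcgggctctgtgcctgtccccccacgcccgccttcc
Mrpl33: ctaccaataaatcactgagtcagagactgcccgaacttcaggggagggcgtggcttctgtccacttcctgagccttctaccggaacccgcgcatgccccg
Mrpl24: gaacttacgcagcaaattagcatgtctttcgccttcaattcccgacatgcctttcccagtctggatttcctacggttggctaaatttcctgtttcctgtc
The places are chr7:105811088-105811187 (minus strand) for Mrpl17, chr4:155802778-155802877 (plus strand) for Mrpl20, chr11:94653691-94653790 (plus strand) for Mrpl27, chr9:105053168-105053267 (plus strand) for Mrpl3, chr9:98601680-98601779 (minus strand) for Mrps22, chr13:99344686-99344785 (plus strand) for Mrps27, chr5:31613851-31613950 (plus strand) for Mrpl33 and chr3:87919444-87919543 (plus strand) for Mrpl24. Mrpl33 held a GABP match from 3 bases before to 4 bases after the start, so the stretch shown ends inside it. In Mrpl24 no letters of these motifs matched in the 300 bases.

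A GABP match was found in 12 of 69 member promoters (17.4%), against 9.52% of the 9545 promoters of tested genes and 4.31% of all 27025. For YY1 the share was likewise 17.4%, against 5.55% of tested and 3.19% of all genes. For NRF1 it was 7 of 69 (10.1%), against 4.36% and 2.07%, and for the E-box 5 of 69 (7.25%), against 11.8% and 8.09%. At least 1 of NRF1, GABP and YY1 was found in 29 members (42.0%), against 18.1% of tested genes. No matches of different motifs shared a base within a member. In 8 of the 12 members with a YY1 match it lay after the start. Among the 28 members with a promoter that were called higher in E-Mac, NRF1 was found in 3, GABP in 6 and YY1 in 5. Among the other 41, NRF1 was found in 4, GABP in 6 and YY1 in 7. These matches are descriptions of letters and no test was made of them.

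Each Mac library held 11646025 to 15556935 counts and each E-Mac library 13377046 to 15740846. Among macrophage markers 6 of 8 were called higher and 1 lower in E-Mac, while their sum in counts per 1000000 (CPM) was lower there, 8486 to 11640 CPM against 12720 to 13710 CPM in Mac. Among 12 granulocyte markers 11 were called lower, and their sum was 30090 to 33640 CPM in Mac and 9163 to 14790 in E-Mac. Of 14 proliferation markers 12 were called lower, with sums of 2148 to 2274 and 576.2 to 1091 CPM. Of 8 stromal markers tested 5 were called higher and 1 lower, and the sum of the whole list was 3198 to 3791 CPM in Mac and 872.8 to 1044 CPM in E-Mac. Without Fn1, which was left out after the data were seen, the stromal sums were 4.66 to 7.43 CPM in Mac, where Col3a1, Lum and Pdgfra were at 0. In that form they were 53.6, 338, 38.7 and 356 CPM in E-Mac 1 to 4. Erythroid marker sums were 45.3 to 62.3 CPM in Mac and at most 0.431 CPM after co-culture. The part of these cell types in the results below was not tested, and in bulk libraries fewer cells of a type and less RNA per cell cannot be told apart. Whether the libraries of a group came from separate animals or cultures is not stated, and the p-values therefore reflect the spread among these libraries, possibly technical.

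Mitochondrial ribosomal protein transcripts were more often called higher than lower after co-culture, by modest amounts. Of the 77 members tested, 31 (40.3%) were called higher in E-Mac and 3 (3.90%) lower, at a Benjamini-Hochberg adjusted p under 0.05 in edgeR's quasi-likelihood test over 13412 genes. Over all genes tested, 58.3% were called, 29.5% higher and 28.8% lower. The median log2 fold change was 0.21 for the members and 0.00 for all genes tested. Member values ran from -0.80 for Mrpl33 to 1.21 for Mrps28. Among members called higher, Mrps28 alone passed a 2-fold increase and 17 passed 1.5-fold. Of all 13412 genes tested, 1283 and 2242 were called higher beyond these limits. Among those called lower, Mrpl33 alone passed a 1.5-fold decrease, with an E-Mac to Mac fold of 0.576. All 4 E-Mac libraries lay above all 4 Mac libraries for 25 members (26.7% of all genes tested) and below for 4 (27.2% of all genes tested). Of the 34 members called, 7 had groups that overlapped, against 845 of the 7814 genes called over all genes tested. Measured against these shares, few members were called lower, and somewhat more than the background were called higher.

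This split depended on scaling. With the main scaling, by trimmed mean of M values (TMM), 50.6% of the calls over all genes were higher, the median over all genes was 0.00, and 31 members were higher and 3 lower. With library size alone, 37.4% of the calls over all genes were higher and the median over all genes moved to -0.15. The members then had 27 calls higher and 11 lower with a median of 0.07. With upper-quartile factors 28 were higher and 10 lower, with a median of 0.11 against -0.10 over all genes. Other scaling factors move all genes by nearly the same amount. The distance of the members' median from that of all genes therefore could not change much, and its constancy is no check of the result. The number called lower did change.

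**Figure D1:**
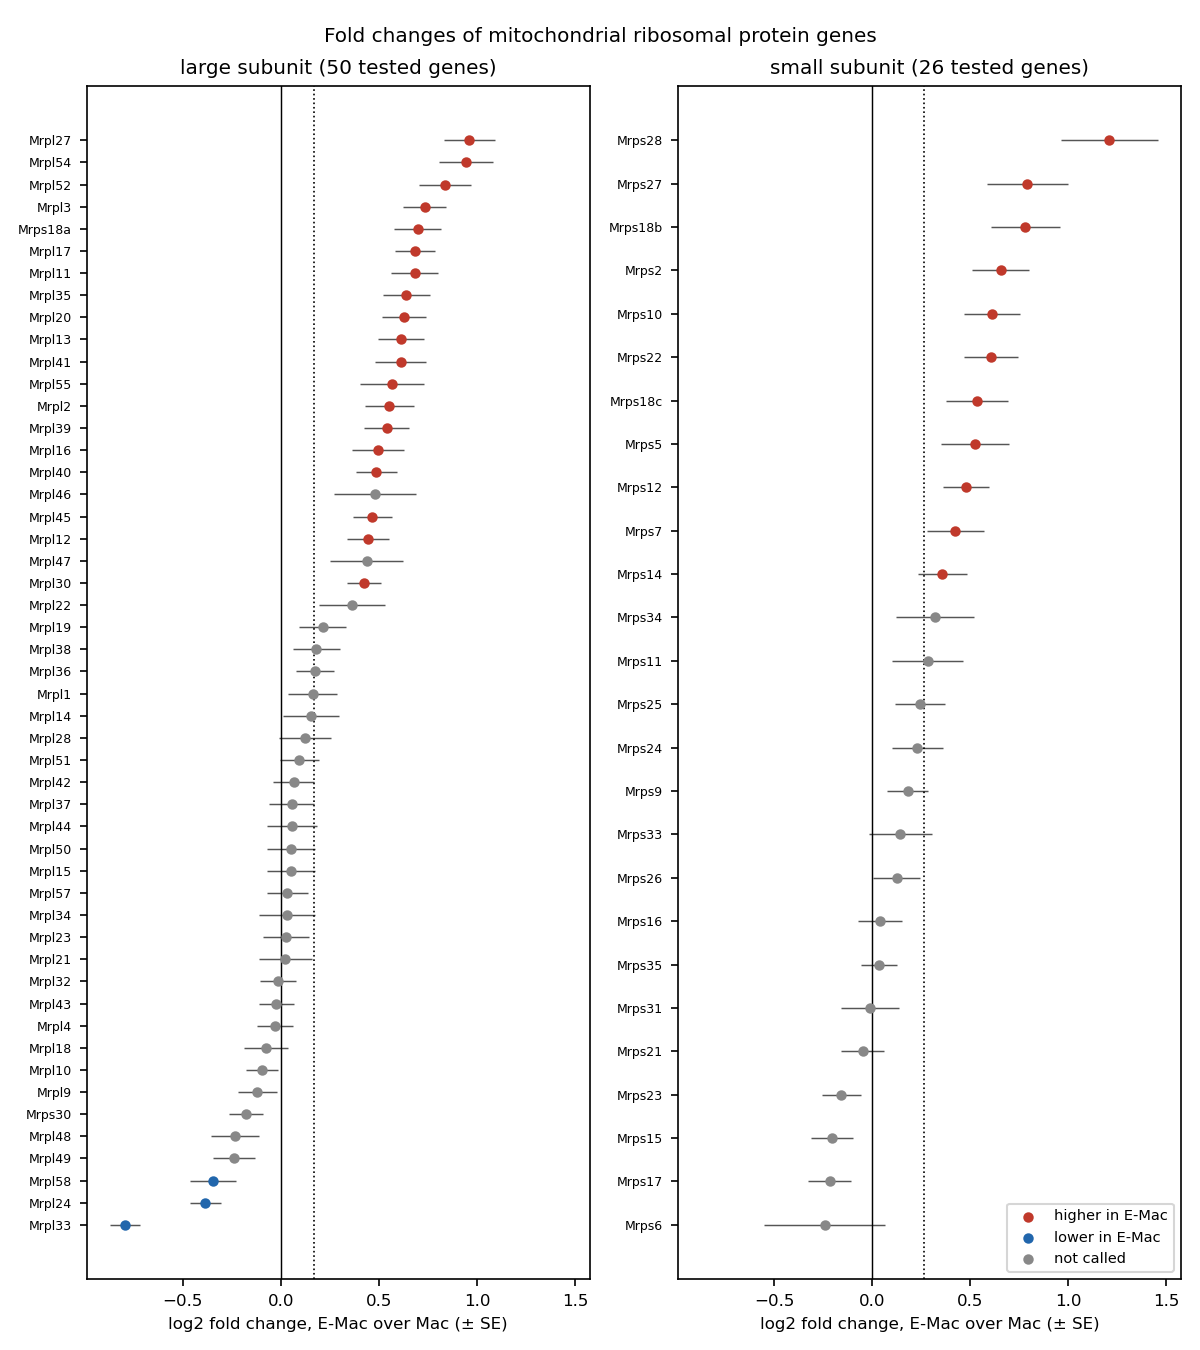
Log2 fold change of E-Mac over Mac with its standard error (horizontal axis) for each tested member of a subunit, large subunit on the left and small subunit on the right, ordered by value. Red points were called higher, blue points lower and grey points not called, and the dotted line is the subunit's median, 0.17 for the large and 0.26 for the small subunit.

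In the large subunit 19 of 50 tested members were called higher and 3 lower, with a median log2 fold change of 0.17. In the small subunit 11 of 26 were called higher and 0 lower, with a median of 0.26. No test compared the subunits. Taking the letter of the symbol in place of the position in the ribosome gave 18 higher and 3 lower of 48 for Mrpl genes and 13 higher and 0 lower of 29 for Mrps genes. Among large-subunit proteins with a bacterial counterpart, 12 of 30 were called higher and 2 lower (median 0.19). Among those specific to mitochondria 7 of 20 were higher and 1 lower (median 0.08). Among small-subunit proteins 8 of 16 with a bacterial counterpart were called higher and 0 lower (median 0.32). Of those specific to mitochondria 3 of 10 were higher and 0 lower (median 0.19). The shares called higher were 40% and 35% in the large subunit and 50% and 30% in the small, with bacterial counterparts first. Over all genes tested 29.5% were called higher and 28.8% lower. Both sets specific to mitochondria thus lay near the background for increases, and these small sets were not compared by a test.

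The large-subunit transcripts together gave 1109, 1132, 1140 and 1180 CPM in Mac 1 to 4 (1140 ± 29.6, SD, n = 4) and 1356, 1186, 1434 and 1162 CPM in E-Mac 1 to 4 (1285 ± 132). The small-subunit transcripts gave 421.4, 417.2, 416.8 and 464.8 CPM in Mac (430 ± 23.3) and 544.4, 436.3, 574.7 and 439.4 in E-Mac (498.7 ± 71.4). The E-Mac to Mac ratio of the means was 1.13 for the large and 1.16 for the small subunit. With library size alone these ratios were 1.02 and 1.05. For both sums E-Mac 1 and E-Mac 3 were the highest libraries of the series, and E-Mac 2 and E-Mac 4 lay within or close to the range of Mac. The large to small ratio was 2.65 ± 0.0893 in Mac and 2.59 ± 0.113 in E-Mac, and the groups overlapped. Without Mrpl33, the most abundant member, it was 2.43 ± 0.0787 and 2.48 ± 0.0898, with the order of the means turned.

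**Figure D2:**
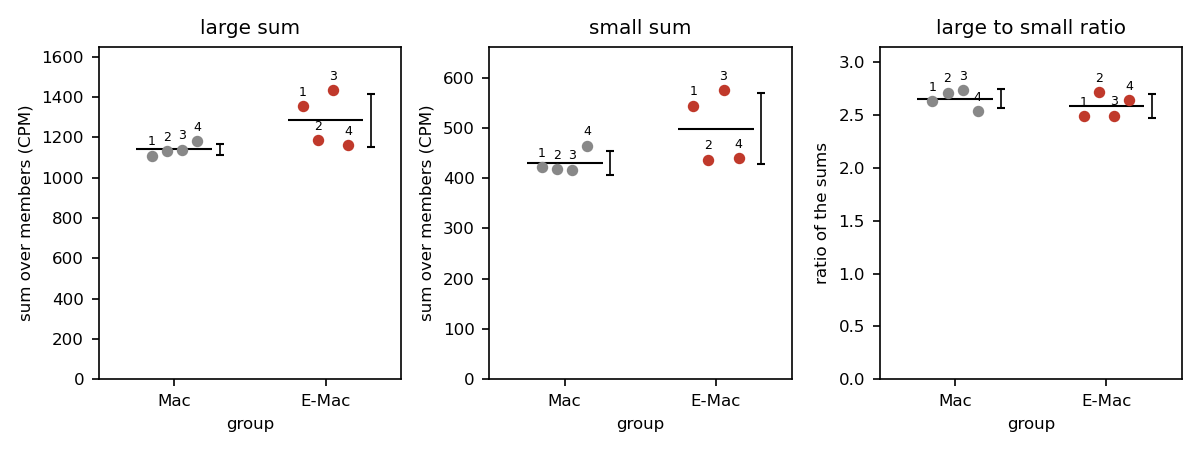
Summed CPM of large-subunit members, of small-subunit members, and the ratio of both sums (vertical axes, from 0) in Mac and E-Mac, with points numbered by replicate, a line at the mean and a bar of 1 SD to each side. E-Mac 1 and 3 stand above all other libraries in both sums, 1356 and 1434 CPM for the large subunit, while the ratios of the groups overlap.

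Mrps28, a protein of the small subunit with a counterpart in bacteria, had the largest increase. It lies on chr3:8802146-8923918 (GENCODE M21 on GRCm38, minus strand). Its levels were 4.72, 2.91, 4.36 and 5.55 CPM in Mac 1 to 4 and 13.3, 6.95, 13.1 and 7.69 CPM in E-Mac 1 to 4. Each E-Mac library was above each Mac library, with E-Mac 1 and 3 highest. The log2 fold change was 1.21 ± 0.25 (SE), with an edgeR adjusted p of 0.00103.

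Mrpl27, whose bacterial counterpart lies close to the site of peptide bond formation, had 11.0, 11.4, 12.2 and 9.43 CPM in Mac and 20.9, 20.8, 25.9 and 18.04 CPM in E-Mac. The groups were well apart, and the increase of 0.96 ± 0.13 on the log2 scale had an edgeR adjusted p of 3.24e-05. Mrpl54, specific to the mitochondrial large subunit, had 15.4, 15.5, 17.0 and 19.97 CPM in Mac and 35.8, 32.5, 37.9 and 24.7 CPM in E-Mac. Its E-Mac 4 was the lowest of its group but still above Mac, with a log2 fold change of 0.94 ± 0.14 and an edgeR adjusted p of 5.76e-05. Mrpl52, also specific to mitochondria, had 20.1, 23.1, 25.7 and 27.7 CPM in Mac and 47.2, 40.3, 50.7 and 34.1 CPM in E-Mac. These groups too did not overlap (0.83 ± 0.13, edgeR adjusted p 0.000127).

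Mrps27, a small-subunit protein of the pentatricopeptide repeat family, had 5.22, 6.91, 4.42 and 7.21 CPM in Mac and 13.1, 7.15, 11.3 and 9.56 CPM in E-Mac. E-Mac 2 lay just under Mac 4, so the groups overlapped although the gene was called higher (0.79 ± 0.21, edgeR adjusted p 0.00513).

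**Figure D3:**
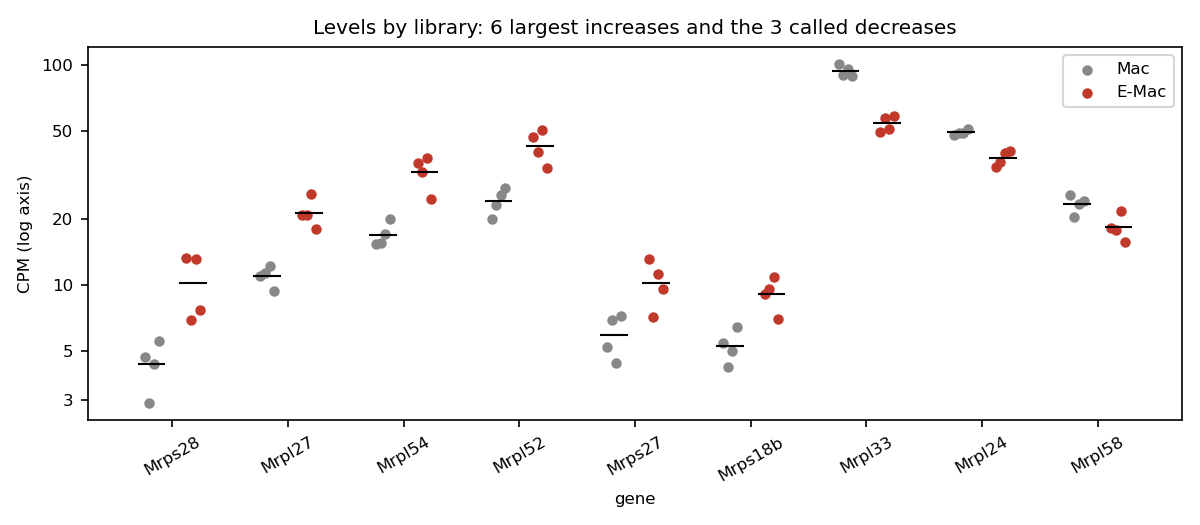
CPM on a log axis in each library for the 6 members with the largest called increases and the 3 called decreases, Mac in grey and E-Mac in red, with a line at the group mean. Mrpl33 falls from a mean of 94.4 to 54.4 CPM with no overlap, whereas the groups of Mrps27 and Mrpl58 overlap.

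Mrpl33, a small large-subunit protein with a counterpart in bacteria, was the clearest decrease. The gene lies on chr5:31596935-31664384 (plus strand). Its levels were 101.3, 90.3, 96.3 and 89.8 CPM in Mac and 49.8, 57.6, 51.1 and 58.9 CPM in E-Mac. No library of one group came near the other group. The log2 fold change was -0.80 ± 0.08, with an edgeR adjusted p of 1.29e-06. It had 639 to 1631 counts per library and the most counts of the members over all libraries together, 8794. Per kilobase of the principal transcript (478 bases) it also had the highest level, 156 CPM per kb over all libraries, before Mrpl52 with 80.4 and Mrps21 with 49.1. With the union of annotated exons as the length, 7326 bases for Mrpl33, these levels per kb were 10.2, 30.3 and 32.4, so the order rests on which transcript is made. Mrps21, a small-subunit protein, did not differ between the groups beyond their spread. It had 20.6, 23.6, 26.5 and 26.6 CPM in Mac and 24.9, 21.0, 25.4 and 22.9 CPM in E-Mac (log2 fold change -0.05 ± 0.11, edgeR adjusted p 0.727).

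Mrpl24, whose bacterial counterpart binds early in assembly of the large subunit, was the other decrease with separate groups. It lies on chr3:87919506-87923672 (plus strand) and had 48.2, 49.1, 49.3 and 51.4 CPM in Mac and 34.5, 36.3, 39.8 and 40.8 CPM in E-Mac. The fall was -0.39 ± 0.08 on the log2 scale (edgeR adjusted p 0.000814). Of its exon bases 26.3% are shared with Rrnad1 on the opposite strand, and Rrnad1 fell as well (-0.58 ± 0.13, edgeR adjusted p 0.00211). No source names the strand setting of the counting, and reads of both genes in the shared bases cannot be told apart.

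Mrpl58, a peptidyl-tRNA hydrolase built into the large subunit that frees stalled ribosomes, had 25.6, 20.3, 23.5 and 24.2 CPM in Mac and 18.2, 17.8, 21.8 and 15.7 CPM in E-Mac. Mac 2 lay below E-Mac 3, so the groups overlapped. The log2 fold change was -0.35 ± 0.12 (edgeR adjusted p 0.0212). This call was lost when Mac 1, Mac 4 or E-Mac 4 was left out, with adjusted p of 0.0686, 0.0541 and 0.0579. Mrps30, in the large subunit, had 23.4, 24.3, 22.4 and 24.3 CPM in Mac and 21.1, 19.7, 21.0 and 21.4 CPM in E-Mac. All E-Mac libraries were below Mac, but the log2 fold change of -0.18 ± 0.09 was not called (edgeR adjusted p 0.0925). With library size alone it was called, at -0.32 ± 0.09 (adjusted p 0.00713).

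The stalk of the large subunit, which recruits translation factors, is built on Mrpl10, Mrpl11 and Mrpl12; the first and second of these were chosen for their role after their values were seen. Mrpl12 had 12.8, 13.1, 14.1 and 12.8 CPM in Mac and 19.0, 15.5, 19.9 and 17.3 CPM in E-Mac, with no overlap (0.44 ± 0.11, edgeR adjusted p 0.00348). Mrpl11 was called higher (0.68 ± 0.12, edgeR adjusted p 0.000318), and Mrpl10 was not called (-0.10 ± 0.08, adjusted p 0.337). Members of 1 structure thus did not all show the same change. Mrpl30, among the smallest increases called, had the narrowest error of those. It gave 39.7, 41.2, 38.6 and 41.7 CPM in Mac and 57.2, 52.8, 60.4 and 45.9 CPM in E-Mac, groups that did not overlap (0.42 ± 0.09, edgeR adjusted p 0.00115).

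Mammals have 3 genes of the Mrps18 family, related to 1 bacterial protein, and all 3 were called higher. In the counts by origin above, Mrps18c was placed with the bacterial counterparts. Mrps18a and Mrps18b were placed there with the proteins specific to mitochondria, in spite of this relation. Mrps18a, whose product sits in the large subunit, had 16.8, 20.2, 21.2 and 20.2 CPM in Mac and 35.1, 29.98, 36.3 and 25.6 CPM in E-Mac (0.70 ± 0.12, edgeR adjusted p 0.000293). Mrps18b had 5.47, 4.25, 5.04 and 6.47 CPM in Mac and 9.12, 9.63, 10.8 and 7.04 CPM in E-Mac (0.78 ± 0.18, edgeR adjusted p 0.00182). In both the groups were separate. Mrps18c had 12.6, 14.3, 11.6 and 15.5 CPM in Mac and 20.9, 17.3, 24.99 and 14.9 CPM in E-Mac (0.53 ± 0.16, edgeR adjusted p 0.0105). E-Mac 4 lay below Mac 4 for this gene.

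Among small-subunit members, Mrps12, a protein of the decoding site, had 13.4, 13.8, 12.1 and 12.4 CPM in Mac and 17.9, 16.8, 21.5 and 15.8 CPM in E-Mac. The groups were separate (0.48 ± 0.12, edgeR adjusted p 0.00346). Mrps14 had 20.2, 22.6, 23.0 and 21.6 CPM in Mac and 34.4, 24.8, 30.4 and 22.5 CPM in E-Mac, where E-Mac 4 overlapped Mac (0.36 ± 0.13, edgeR adjusted p 0.0273). Its call was lost in 6 of 17 alternatives, among them leaving out Mac 1, Mac 4, E-Mac 1 or E-Mac 3 (with adjusted p of 0.0791, 0.06, 0.083 and 0.065). Mrps6 was the least abundant tested member, with 2.30, 2.17, 1.97 and 2.16 CPM in Mac and 1.79, 0.894, 2.76 and 1.80 CPM in E-Mac. At 13 to 41 counts per library no difference was detectable (-0.24 ± 0.31, edgeR adjusted p 0.526), and its sign turned without E-Mac 2 (0.004). Mrps36, outside the ribosome, had 8.20, 6.91, 9.22 and 7.77 CPM in Mac and 10.7, 9.22, 12.5 and 9.70 CPM in E-Mac. It was called higher (0.39 ± 0.14, edgeR adjusted p 0.0323), but not in 7 of 16 alternatives, among them leaving out Mac 1, Mac 2, Mac 4, E-Mac 1 or E-Mac 3 (with adjusted p of 0.0586, 0.0701, 0.0738, 0.0524 and 0.104).

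Values of the remaining members are given by group and range. In the large subunit 13 beyond those with values per library (Mrpl11, above, among them) were called higher, with log2 fold changes of 0.47 (Mrpl45, which tethers the ribosome to the inner membrane) to 0.73 (Mrpl3) and edgeR adjusted p of at most 0.00944. Mrpl3, which reaches toward the peptidyl transferase centre, went from 21.6 ± 2.02 to 35.9 ± 4.50 CPM (SD, n = 4 each), with all E-Mac libraries above Mac. Mrpl17 went from 19.9 ± 1.62 to 32.0 ± 3.53 CPM (0.68 ± 0.10) and Mrpl20 from 28.6 ± 2.15 to 44.2 ± 6.77 CPM (0.63 ± 0.11), with edgeR adjusted p of 9.02e-05 and 0.000299. In the small subunit 5 more were called higher (Mrps2, Mrps5, Mrps7, Mrps10 and Mrps22), by 0.42 to 0.66 on the log2 scale. Mrps22 went from 9.20 ± 0.666 to 14.0 ± 2.35 CPM (0.61 ± 0.14, edgeR adjusted p 0.00205). These genes with a motif in the stretch shown above (Mrpl3, Mrpl17, Mrpl20 and Mrps22, described for that reason after their values were seen) had groups that did not overlap. The call of Mrps5 was lost when E-Mac 1 or E-Mac 3 was left out (0.0501 and 0.0571 for its edgeR adjusted p). That of Mrps7 was lost without these or Mac 3 (0.0718, 0.0626 and 0.0744). Both calls were also lost with library size alone (edgeR adjusted p 0.0801 for Mrps5 and 0.12 for Mrps7), and that of Mrps7 with upper-quartile factors (0.0616). The other 27 large-subunit members, with Mrpl10 among them, and 13 small-subunit members were not called, with log2 fold changes of -0.24 to 0.48 and -0.22 to 0.32.

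For 61 of the 77 tested members both E-Mac 1 and E-Mac 3 lay above both E-Mac 2 and E-Mac 4, against 33% of all genes tested. The reverse order was found for 2 members, against 25.8% of all genes. Relative to the Mac mean, the median over members was 0.29, 0.11, 0.45 and 0.07 in E-Mac 1 to 4 on a log2 scale of CPM with 0.5 added. Over all genes tested these medians lay between -0.01 and 0.00. The E-Mac libraries thus formed 2 pairs, in these genes and in the libraries as a whole. The chi-square per degree of freedom between 2 libraries was 4.89 for E-Mac 1 and 3 and 9.25 for E-Mac 2 and 4. Across the pairs it was 19.7 to 33.9, and among Mac libraries 4.85 to 10.5. E-Mac 2 and E-Mac 4 were also the pair with the higher stromal marker sums without Fn1 given above; the sums with Fn1 were 996.3 and 970 CPM, against 1044 and 872.8 in E-Mac 1 and 3. They had higher granulocyte sums as well, 14790 and 12810 CPM against 9163 and 9680 in E-Mac 1 and 3, and lower proliferation sums, 576.2 and 795.5 against 1091 and 972 CPM. Their part in the difference between the pairs was not tested.

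Without E-Mac 2 and E-Mac 4, 47 members were called higher, against 30.8% of the 14128 genes then tested, and 2 lower, against 29.3%. The 47 included each of the 31 called with all libraries. The members' median log2 fold change was then 0.37. In the large subunit 29 of 50 were called higher and 2 lower (median 0.33), and in the small subunit 17 of 26 were called higher and 0 lower (median 0.47). Mrps28 reached 1.58 ± 0.19 (edgeR adjusted p 5.66e-08). Mrpl33 was at -0.90 ± 0.07 and Mrpl24 at -0.40 ± 0.09, while Mrpl58 was no longer called (-0.22 ± 0.12, adjusted p 0.119).

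**Figure D4:**
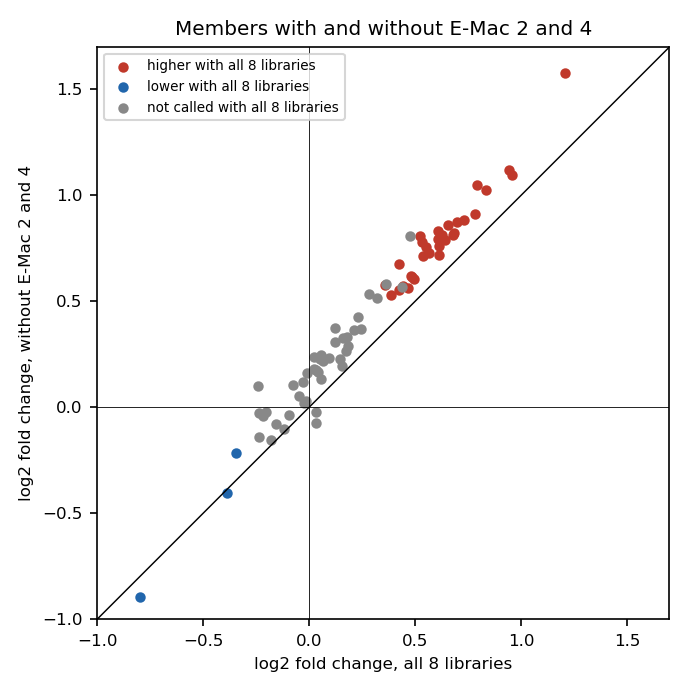
Log2 fold change of each tested member with all 8 libraries (horizontal axis) and without E-Mac 2 and E-Mac 4 (vertical axis), coloured by its call with all libraries, with the line of equal values. Most points lie above the line, with Mrps28 moving from 1.21 to 1.58, and Mrpl33 stays the lowest point. E-Mac 2 and E-Mac 4 were the lower pair in most members, so a shift above the line was bound to follow.

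Members were also divided by level, with no test of the difference. The 39 members at or below the median level of 20.9 CPM had 17 calls higher and 1 lower, with a median log2 fold change of 0.36. The 38 above it had 14 higher and 2 lower, with a median of 0.11. Across the 77 genes, which share the same libraries, mean level and log2 fold change had a Spearman rho of -0.32 and, with the log2 of the level, a Pearson r of -0.30, given as a description. Among the 65 members with a mean of 10 to 60 CPM, 26 were called higher and 2 lower. Of all 4876 genes tested in that range 30.2% were called higher and 31.3% lower.

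The annotation gave 33 members exon bases shared with another gene, 28 of them with a gene on the opposite strand. Among the 32 of these that were tested, 8 were called higher and 3 lower (median 0.16). Of all tested genes with such overlap 28% were called higher and 28.8% lower. Among the 45 members without it, 23 were called higher and 0 lower (median 0.36), where 30.3% and 28.9% of all tested genes without overlap were called. The 3 members called lower were thus all among those that share exon bases, though Mrpl58 shares 2 bases only, 0.06% of its exons, and Mrpl33 3.56%, with a gene that had 0 counts. The part of shared reads in this difference was not tested. The largest overlaps among tested members were those of Mrps25 with Nr2c2 (69.8% of its exon bases) and Mrps34 with Mapk8ip3 (63.4%). Mrps34 also shares 37% with Nme3 on the same strand, a gene at 0 CPM in both groups. Mrpl19 with Gcfc2 (36%) and Mrpl43 with Twnk (33.4%) followed, and none of these 4 members was called. The next in size were those of Mrps18b with Gm16279 (30.5%), Mrpl24 with Rrnad1 (26.3%) and Mrps27 with 6430562O15Rik (24.2%), where Mrps18b and Mrps27 were called higher and Mrpl24 lower. Mrpl46 and Mrps11, neighbours read in opposite directions, share 173 exon bases, and neither was called (0.48 ± 0.21 and 0.28 ± 0.18, edgeR adjusted p 0.0671 and 0.194). Mrpl53, the member that was not tested, had 0 to 2 counts per library and shares 88.0% of its exon bases with Gm42688 on the same strand.

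For the related lists that follow, the background over all genes tested was 29.5% called higher and 28.8% lower. Mitoribosomal proteins that carry other symbols showed 2 of 5 tested genes called higher (40%) and 0 lower. Aurkaip1 went from 55.6 ± 1.84 to 74.1 ± 6.72 CPM (SD, n = 4 each) and Chchd1 from 15.2 ± 1.75 to 20.6 ± 4.61, with log2 fold changes of 0.41 ± 0.08 and 0.43 ± 0.15 (edgeR adjusted p 0.000389 and 0.0278). Both are small-subunit proteins. Dap3, a GTP-binding protein of the small subunit, was not called (0.14), nor was Ptcd3 (-0.24) or Gadd45gip1 (0.30).

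Factors that build the mitoribosome or modify its RNA had 9 of 29 called higher (31.0%, near the background) and 5 lower (17.2%). Their log2 fold changes ran from -0.835 to 1.12, with a median of 0.08. The 3 with the smallest adjusted p, given next, all rose, and those called lower are not named. C1qbp, a matrix protein needed for mitochondrial translation, rose from 20.5 ± 1.95 to 44.7 ± 7.12 CPM (log2 fold change 1.12 ± 0.12, edgeR adjusted p 3.96e-06). Mpv17l2, which associates with the large subunit, rose from 13.0 ± 0.238 to 22.5 ± 1.66 CPM (0.80 ± 0.10, edgeR adjusted p 1.2e-05). Trub2, a pseudouridine synthase, rose from 23.2 ± 1.98 to 37.6 ± 3.03 CPM (0.70 ± 0.10, edgeR adjusted p 3.22e-05).

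Translation factors were called in both directions, 3 higher and 3 lower of 14 (21.4% each, below the background). Oxa1l, the insertase that takes newly made proteins into the inner membrane, fell from 75.4 ± 3.34 to 48.7 ± 2.17 CPM (-0.63 ± 0.07, edgeR adjusted p 3.67e-06). Mtfmt, which formylates the initiator tRNA, fell from 15.98 ± 1.893 to 9.69 ± 0.940 CPM (-0.73 ± 0.13, edgeR adjusted p 0.000243). Mtrf1l, a release factor, fell from 11.1 ± 1.703 to 5.50 ± 1.56 CPM (-1.01 ± 0.19, edgeR adjusted p 0.000586). The elongation factors Tsfm (0.62 ± 0.15) and Gfm1 (0.41 ± 0.12) rose, as did Letm1 (0.36 ± 0.08), with edgeR adjusted p of 0.00359, 0.00821 and 0.00136. The elongation factor Tufm (0.04) and the initiation factors Mtif2 (0.08) and Mtif3 (0.05) were not called.

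Mitochondrial aminoacyl-tRNA synthetases, which charge the tRNAs, had 3 called higher (15.8%) and 9 lower (47.4%) of 19 (median -0.03). Cars2 fell from 28.5 ± 3.35 to 17.2 ± 1.72 CPM (-0.73 ± 0.11) and Mars2 from 13.6 ± 1.95 to 7.25 ± 1.31 (-0.91 ± 0.16), with edgeR adjusted p of 0.000112 and 0.000222. Kars, which serves the cytosol too, rose from 63.4 ± 3.93 to 90.2 ± 9.27 CPM (0.51 ± 0.08, edgeR adjusted p 0.000153). Genes of mitochondrial transcription and genome maintenance had 3 higher (17.65%) and 5 lower (29.41%) of 17 (median -0.18). Pnpt1, an RNA-degrading enzyme, rose from 45.4 ± 0.976 to 76.0 ± 8.73 CPM, and Polg, the polymerase of mitochondrial DNA, fell from 128 ± 2.29 to 98.9 ± 5.71. Their log2 fold changes were 0.74 ± 0.08 and -0.38 ± 0.06 (edgeR adjusted p 5.63e-06 and 0.000192). Mgme1, a nuclease of mitochondrial DNA, fell by 0.66 on the log2 scale (SE 0.15, edgeR adjusted p 0.00223).

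Nuclear-encoded subunits of the respiratory chain and ATP synthase had 34 of 75 called higher (45.3%) and 5 lower (6.67%). The median log2 fold change of these subunits, whose complexes mitoribosomes help to supply, was 0.21. For 60 of these 75 genes E-Mac 1 and 3 were above E-Mac 2 and 4. Atp5g1 rose from 27.1 ± 4.73 to 47.0 ± 6.73 CPM (0.80 ± 0.13) and Sdhb from 81.3 ± 6.72 to 118 ± 11.2 (0.54 ± 0.08), with edgeR adjusted p of 0.000189 and 0.000109. Ndufb11 of complex I fell from 70.5 ± 4.70 to 48.6 ± 3.06 CPM (-0.54 ± 0.08, edgeR adjusted p 4.35e-05). Protein import, on which mitoribosomal proteins depend, had 18 called higher (64.3%) and 2 lower (7.14%) of 28. It had the highest median of these lists, 0.45. Hspa9, the matrix chaperone of import, rose from 73.9 ± 4.71 to 189 ± 24.0 CPM (1.35 ± 0.09, edgeR adjusted p 4.16e-08). Timm17a and Tomm40, channel components of the inner and outer membrane, rose by 1.31 ± 0.12 and 1.05 ± 0.11 on the log2 scale (edgeR adjusted p 6.46e-07 and 2.12e-06).

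**Figure D5:**
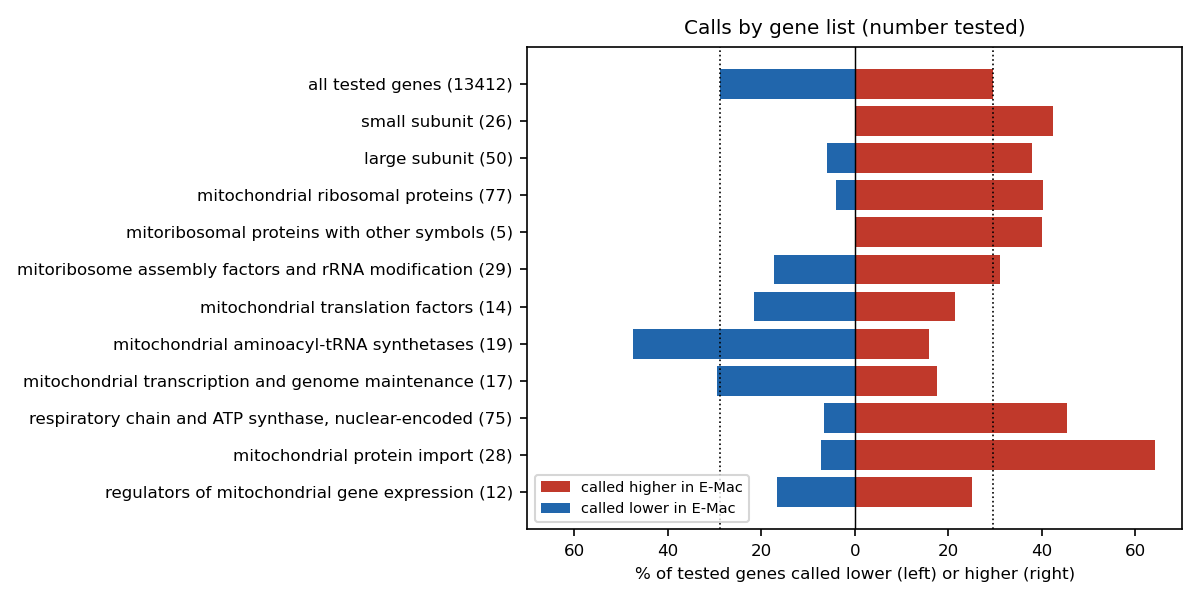
Percent of tested genes called lower (blue, to the left) or higher (red, to the right) in E-Mac for all genes, the members, their subunits and the related lists, with the number tested in brackets and dotted lines at the shares of all genes, 28.8% and 29.5%. Protein import has the longest bar on the right, 18 of 28, and the aminoacyl-tRNA synthetases the longest on the left, 9 of 19.

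Among regulators of mitochondrial genes 3 of 12 tested were called higher (25%) and 2 lower (16.7%). Perm1, a muscle-enriched coregulator, rose from 3.12 ± 0.671 to 11.6 ± 2.23 CPM (1.88 ± 0.20, edgeR adjusted p 2.8e-06). Myc, which binds E-boxes, rose from 17.8 ± 2.09 to 36.5 ± 6.88 CPM (1.03 ± 0.14, edgeR adjusted p 2.55e-05), and the coactivator Pprc1 from 24.5 ± 1.86 to 37.5 ± 5.01 (0.61 ± 0.11, adjusted p 0.000256). Gabpb2, a subunit of GABP, fell from 185 ± 10.1 to 125 ± 8.91 CPM (-0.57 ± 0.07, edgeR adjusted p 1.64e-05), and Yy1 fell from 172 ± 6.78 to 148 ± 7.32 (-0.22 ± 0.06, adjusted p 0.0103). Transcripts of Nrf1 (0.07) and Gabpa (-0.06), the DNA-binding subunit of GABP, were not called, and Ppargc1a had too few counts to be tested.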

How the data were processed

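PolyA RNA of 8 libraries, 4 Mac and 4 E-Mac, was read from 1 table of raw counts per gene symbol that the authors deposited. Per the submitters' processing notes, the build was mm10 and the tools were HISAT2, featureCounts of Subread, DESeq2 and bcl2fastq. The handling of strand and of multi-mapped reads, like tool versions and the gene annotation, was not given in the sources used here. Reads shared by gene copies or overlapping genes may be missing or misplaced. Of 53673 rows, 26 with names in the form of dates (0.1335 to 0.16% of the counts of a library) were left out, as were 5 pseudogene rows that match the members' names.

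The deposited counts were fitted over the whole table with edgeR 4.0.16 in R 4.3.3. Low genes were removed by filterByExpr with minima of 10 counts and 15 in total, and TMM factors were 0.9307 to 1.068. The group effect was tested by robust quasi-likelihood, with p-values adjusted by Benjamini-Hochberg over 13412 genes and calls at an adjusted p under 0.05. The code was tested on simulated data. CPM are counts per 1000000 of a library's total in all tested genes times its TMM factor. Subunit sums are descriptions without a test. Exon overlaps and lengths came from GENCODE M21 (GRCm38) and promoters from RefSeq. At 11646025 counts or more per library, the tested members had 13 to 1631 counts each, and Mrps6 and Mrps28 carry the widest errors.

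The members, lists and tests were chosen with earlier results of these data known. Values in each library are given for the 6 highest and 6 lowest log2 fold changes among called members, the 3 highest levels per kb, the 3 called members with the smallest standard error and 9 genes set by name. From each related list the 3 smallest adjusted p were taken, and further genes named were chosen after their values were seen. The 17 alternatives fitted were other scaling (RLE, upper quartile, library size only), filters, DESeq2 1.42.0, limma 3.58.1 (voom), the replicate block, each library left out, and E-Mac 2 and 4 left out. Sums were also taken by symbol letter. The level range, the split by exon overlap, the exon-union length and the stromal sum without Fn1 were chosen after seeing the data. Each library was counted as 1 sample. Replicates all differed by more than sampling noise, but such a difference cannot tell separate animals or cultures from repeat preparations of the same cells.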

Additional observations from a re-analysis of the deposited data

Results flagged for a closer look

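Among the 4 Mac libraries, Mac 4 stood apart in the summed level of small-subunit members, with 464.8 CPM against 416.8 to 421.4 CPM in Mac 1 to 3. Its gap to the next library, as a share of the range of the group, passed Dixon's 95% critical value for 4 samples. The check was made on 44 groups of 4 libraries, and chance passes it in about 1 of 20. The large-subunit sum of Mac 4 was also the highest of Mac, 1180 CPM.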

How the results depend on the processing

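Without E-Mac 2 and 4, 47 members were called higher in place of 31 and the small-subunit median was 0.47 in place of 0.26. A rise was bound to follow, since most members were lower in E-Mac 2 and 4 than in E-Mac 1 and 3. Leaving out 1 library gave 27 to 34 members higher and 2 to 5 lower, with 5 lower without E-Mac 3. Members called lower numbered 10 with upper-quartile factors, 11 with library size only and 5 with at least 10 CPM in 4 libraries. RLE factors and DESeq2 gave 31 higher and 3 lower. Among members with values printed per library, signs turned for 2, neither of them called in any fit: Mrps21 ran from -0.122 to 0.022 with 1 library left out and was 0.055 with E-Mac 2 and 4 left out. Mrps6 ran from -0.521 to 0.004 and was 0.102. Signs also turned in some fits for members without values per library, such as Mrpl4, Mrpl15, Mrpl18 and Mrpl21. None of these had been called with all libraries. The causes were not tested. With the replicate number as a block, 31 members were higher and 3 lower, and 7458 genes were called in place of 7814. Same-numbered Mac and E-Mac libraries had correlations of -0.0434, 0.0282, 0.0149 and -0.106 in their deviations, so the numbers are not taken to pair them. Depth limits Mrps6 and Mrpl53, and unknown strand and multi-mapping settings limit members that share exons.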
